A study of Mus musculus with 2 samples.

Results

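The genes described here are 10 genes of the adipocyte, Adipoq, Lep, Plin1, Fabp4, Cidec, Lipe, Pnpla2, Adrb3, Cfd and Ucp1, followed in RNA-seq of mouse mesenteric artery. They were chosen by name as genes of perivascular fat, with earlier results of these data known. All 10 were matched by symbol to an Ensembl identifier among the 55573 genes of the deposited table. The arteries came from wild type C57BL/6 mice at 10 weeks of age. The control library came from arteries kept in 5 mM K+ solution, and its counterpart from arteries in 60 mM K+ solution, which depolarizes smooth muscle. Both are labelled as 60 min treatments, and each pooled the tissue of 2 mice. The methods state that connective tissue was removed before freezing, and for the arterial bed preparation they describe control segments taken from the distal side of the ligated first-order arteries, with the remaining tissue perfused with 60 mM K+. Segment, handling and K+ therefore cannot be told apart if that description holds for the sequenced arteries. With 1 library per condition there is no replicate check and no test of the conditions.

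Small arteries of the mesentery run through fat, and adipocytes lie against their outer coat. White adipocytes store triglyceride in a single large droplet coated by perilipin, release fatty acids from it when catecholamines act on beta-adrenergic receptors, and secrete adipokines such as adiponectin and leptin that act on the vessel wall. Brown and beige adipocytes burn fatty acids in mitochondria uncoupled by UCP1. Some of the genes are nearly confined to adipocytes (Adipoq, Plin1, Cidec, Lep), whereas others are also used elsewhere: Fabp4 is abundant in endothelial cells of small vessels, and Pnpla2 and Lipe serve lipolysis in muscle and other tissues.

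The files held 10480918 reads on genes for 5 mM K+ and 11289598 for 60 mM K+. Smooth muscle led both libraries, with Acta2, smooth muscle actin, at 12480 and 12366 FPKM. Ratios are given as log2(60 mM/5 mM K+) of the reads after scaling of the libraries by TMM, the trimmed-mean factors of edgeR. CPM are reads normalized to the TMM-scaled library size, and FPKM are the deposited levels normalized to gene length and to total counts. Each ratio has a 95% exact (Clopper-Pearson) interval that covers counting error only, not differences between animals or preparations. A gene was called past the fold where its absolute log2 ratio was above 1, the threshold of the study, and it had at least 10 reads over both libraries. The interval treats reads as independent molecules, which PCR copies are not. Scaling by total counts shifts every log2 ratio by -0.21 and the median of all genes with it.

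Some of the adipocyte genes were lower in 60 mM K+ and others were not. Plin1, Cfd and Adipoq were past the fold with lower values in 60 mM K+, Cidec lay just inside it, and Fabp4, Pnpla2 and Lipe, the 3 genes used widely outside fat, had log2 ratios between -0.06 and 0.29. Lep had more reads in 60 mM K+, on 10 reads in all. In bulk tissue, fewer adipocytes and less RNA of these genes per adipocyte cannot be told apart.

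**Figure D1:**
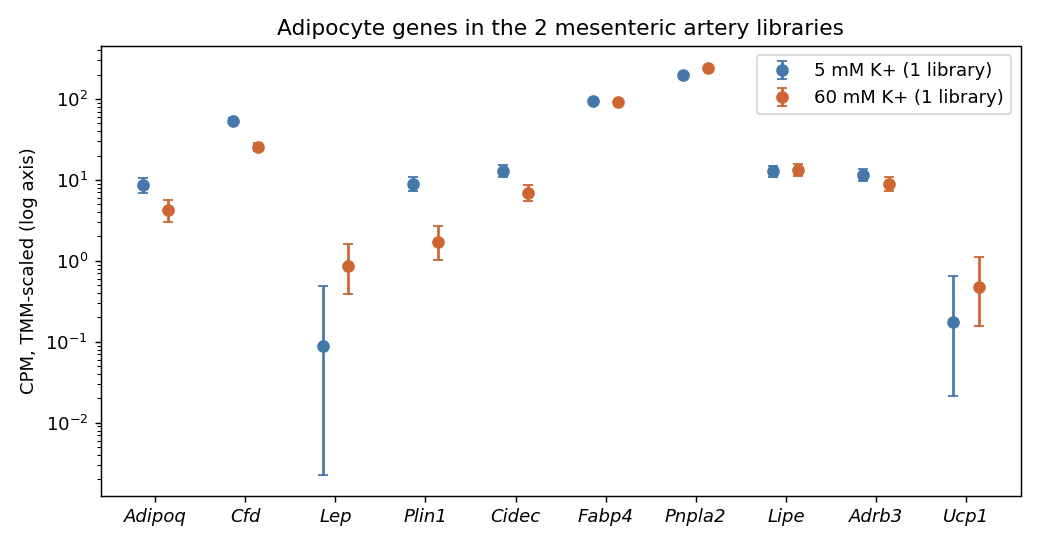
Level of each of the 10 adipocyte genes in the 5 mM K+ (blue) and 60 mM K+ (orange) library, in TMM-scaled CPM on a log axis. Points are 1 library each and bars are 95% exact Poisson intervals, which cover counting error only. Plin1 had 8.96 CPM in 5 mM K+ and 1.71 in 60 mM K+, whereas Fabp4 had 94.1 and 90.6 CPM.

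Adiponectin, encoded by Adipoq, is the most abundant hormone of the adipocyte and is known for protective effects on vessels. Adipoq (ENSMUSG00000022878, chromosome 16, 23146609 to 23158101, mm9, GENCODE vM1) had 97 reads in 5 mM K+ against 44 in 60 mM K+, or 8.61 and 4.19 CPM. The Poisson intervals of both levels did not overlap, and the log2 ratio was -1.04 (interval -1.59 to -0.51), or 48.7% of the control level. Cfd encodes adipsin, a serine protease of the alternative complement pathway that fat secretes in quantity. Cfd (ENSMUSG00000061780, chromosome 10, 79353598 to 79355401) had 607 reads in 5 mM K+ against 270 in 60 mM K+. With the most reads among the genes that were lower, it had the narrowest interval of them, -1.28 to -0.86 around a log2 ratio of -1.07. Leptin, the satiety hormone, had the opposite direction. Lep (ENSMUSG00000059201, chromosome 6, 29010220 to 29023877) had 1 read in 5 mM K+ against 9 in 60 mM K+, and 1 read lies below a floor of 3 counts. Its log2 ratio of 3.27 had an interval from 0.42 to 8.73, so that the direction rests on a handful of reads.

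Plin1 encodes perilipin-1, the coat protein that guards the adipocyte droplet against lipases until it is phosphorylated. Plin1 (ENSMUSG00000030546, chromosome 7, 86866050 to 86877662) had 101 reads in 5 mM K+ against 18 in 60 mM K+. This was the lowest ratio among the 10 genes, with a log2 ratio of -2.39 (interval -3.20 to -1.65) and 19.1% of the control level. Its whole interval lay below those of the other 9 genes. Cidec, which encodes a protein that fuses small droplets into a large one, had 146 and 73 reads (ENSMUSG00000030278, chromosome 6, 113374628 to 113385754). The log2 ratio of Cidec was -0.90 (interval -1.32 to -0.48) with TMM and -1.11 with total counts, so that it stood on either side of the fold depending on the scaling.

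Because these 4 genes were lower together, the sequence around their transcription starts is shown, from 250 bases upstream to 50 bases downstream, on the strand of the gene (RefSeq, GRCm38.p6). Capitals mark a match to the core motif of C/EBP factors, searched as TTGCNNAA on both strands. Cidec has 2 starts in that table, of which the one with a match is shown. The regions are chr16:23146286-23146585 for Adipoq (plus strand), chr10:79890603-79890902 for Cfd (plus strand), chr7:79732727-79733026 for Plin1 (minus strand) and chr6:113434715-113435014 for Cidec (minus strand).
Adipoq: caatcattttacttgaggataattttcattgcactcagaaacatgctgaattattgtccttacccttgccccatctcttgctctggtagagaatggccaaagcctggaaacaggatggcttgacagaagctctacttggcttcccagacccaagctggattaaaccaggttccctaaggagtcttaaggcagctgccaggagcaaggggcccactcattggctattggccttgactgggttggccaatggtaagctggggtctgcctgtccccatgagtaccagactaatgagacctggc
Cfd: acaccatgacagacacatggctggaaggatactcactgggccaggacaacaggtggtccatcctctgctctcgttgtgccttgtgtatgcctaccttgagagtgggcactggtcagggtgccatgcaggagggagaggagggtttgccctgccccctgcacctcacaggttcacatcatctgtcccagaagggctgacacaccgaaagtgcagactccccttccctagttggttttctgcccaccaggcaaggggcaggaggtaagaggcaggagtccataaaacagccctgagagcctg
Plin1: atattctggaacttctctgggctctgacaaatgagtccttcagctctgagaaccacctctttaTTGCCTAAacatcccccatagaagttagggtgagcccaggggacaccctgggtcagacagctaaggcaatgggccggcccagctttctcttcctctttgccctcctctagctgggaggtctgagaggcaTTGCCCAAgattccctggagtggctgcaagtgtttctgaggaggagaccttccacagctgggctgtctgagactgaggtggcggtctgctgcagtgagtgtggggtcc
Cidec: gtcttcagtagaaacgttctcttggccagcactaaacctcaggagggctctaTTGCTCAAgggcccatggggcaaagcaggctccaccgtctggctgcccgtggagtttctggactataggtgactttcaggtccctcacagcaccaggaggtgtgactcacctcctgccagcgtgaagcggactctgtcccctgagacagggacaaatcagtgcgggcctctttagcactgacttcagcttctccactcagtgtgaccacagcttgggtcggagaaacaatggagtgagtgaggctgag

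Plin1 carried 2 C/EBP cores, TTGCCTAA at positions -187 to -180 and TTGCCCAA at -58 to -51 from the start, and the Cidec promoter shown carried TTGCTCAA at -198 to -191. Of the 8 genes that the promoter table holds, 3 had a C/EBP core (Lep, Plin1 and Cidec), compared with 12.2% of all 27025 genes. Fabp4 and Adrb3 are missing from that table. The full cAMP response element (CRE), TGACGTCA, was found in 0 of the 8 genes and in 2.03% of all genes, and its shorter form TGACG, which lies within it, in 1 of 8 (Ucp1) and 23.0% of all genes. The nuclear receptor motif AGGTCA was found in Ucp1 only, and in 18.1% of all genes. Spaced as a direct repeat with 1 base between copies, the form bound by PPAR-gamma, that motif was found in 0 of 8 genes and in 13 of 32851 promoters. The TATA box, searched as TATAAA, was found in 0 of 8 genes and in 15.7% of all genes. Such matches describe the letters of the window and no binding was measured.

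Fabp4 encodes the fatty acid binding protein of adipocytes and of capillary endothelium. Fabp4 (ENSMUSG00000062515, chromosome 3, 10204347 to 10208576) had 1060 reads in 5 mM K+ against 951 in 60 mM K+. Its log2 ratio was -0.06 and the interval, -0.18 to 0.07, held 0. Pnpla2, the lipase that removes the first fatty acid from stored triglyceride, was the gene of the 10 with the most reads. Pnpla2 (ENSMUSG00000025509, chromosome 7, 148641097 to 148646642) had 2237 and 2554 reads, a log2 ratio of 0.29 with an interval of 0.21 to 0.38 that lay above 0. Lipe, hormone-sensitive lipase, acts next in the pathway. Lipe (ENSMUSG00000003123, chromosome 7, 26164546 to 26183729) had 144 and 139 reads and a log2 ratio of 0.05 (interval -0.30 to 0.40). The gene 4732471J01Rik lies across Lipe, and as no source used here says whether strand was used in counting, reads shared between them are uncertain. These directions depend on what the libraries are scaled to: total counts gave -0.16 for Lipe, and scaling to endothelial markers gave -0.15 for Pnpla2. Fabp4 was above 0, at 0.18, when scaled to fibroblast markers.

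Adrb3 encodes the beta-3 adrenergic receptor, through which noradrenaline starts lipolysis in rodent fat. Adrb3 (ENSMUSG00000031489, chromosome 8, 28336248 to 28340060) had 131 reads in 5 mM K+ against 94 in 60 mM K+. The log2 ratio of -0.38 had an interval of -0.78 to 0.02, which just held 0 and overlapped the intervals of Cidec and Adipoq on one side and of Lipe on the other. RefSeq places a long noncoding gene across Adrb3 (Gm45470) and another across Cidec (Gm52871), so that the same caution on strand applies. Ucp1, the uncoupling protein of brown and beige fat, was close to absent. Ucp1 (ENSMUSG00000031710, chromosome 8, 85814247 to 85822355) had 2 reads in 5 mM K+ against 5 in 60 mM K+, too few to enter the counts of genes past the fold. Its log2 ratio of 1.42 had an interval from -1.19 to 4.82.

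**Figure D2:**
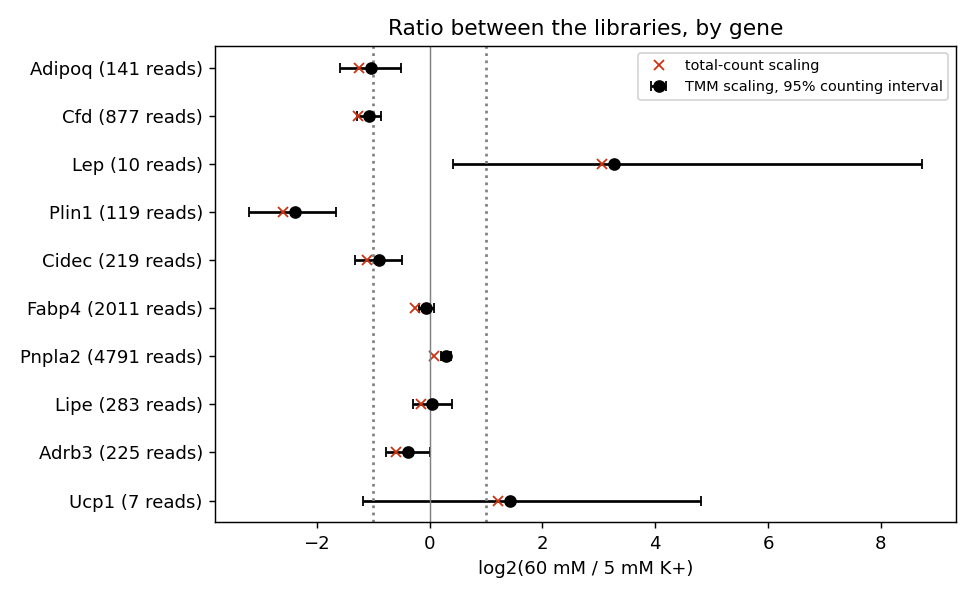
The log2(60 mM/5 mM K+) ratio of each gene with its total reads. Black points and bars are TMM-scaled ratios with 95% counting intervals, red crosses are ratios scaled by total counts, and dotted lines mark the fold threshold at -1 and 1. Plin1 lies apart at -2.39, and the intervals of Lep and Ucp1 span most of the axis.

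Of the 10 genes, 9 had at least 10 reads and entered the counts. Lep entered with exactly 10. Past the fold, 3 of 9 were lower in 60 mM K+, where 5.86% of all 14829 genes with at least 10 reads were, and 1 of 9 was higher, where 5.54% of all genes were. With total counts the lower genes were 4 of 9, as Cidec joined them, and the split of all genes past the fold changed from 822 higher and 869 lower to 601 higher and 1285 lower. The counting interval lay below 0 for 4 of 9 (20.3% of all genes) and above 0 for 2 of 9 (25.0% of all genes). In a random-sampling test written for these counts, with a q-value under 0.005 required in addition to the fold, Plin1, Cfd and Adipoq were called lower (1.58% of all genes) and 0 of 9 was called higher (3.05% of all genes). That test takes its thresholds from the study but is not the calculation the study ran, so its calls do not stand for the study's list of changed genes. Among all 14829 genes with at least 10 reads, the random-sampling test called 452 higher and 235 lower. The study's own list is far shorter in both directions at the same thresholds. It does not hold Plin1, Cfd or Adipoq in either direction. The random-sampling test is thus much more permissive, and a call by it says less than a place on that list. The random-sampling test compares the 2 libraries and not the conditions. The median log2 ratio of the 9 genes was -0.38, beside -0.0047 for all genes with at least 10 reads.

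Summed over all 10 genes, reads barely differed: 4526 in 5 mM K+ and 4157 in 60 mM K+, a log2 ratio of -0.02 (interval -0.08 to 0.04). This sum was led by the genes with wide use. Fabp4, Pnpla2 and Lipe alone held 3441 and 3644 reads, a log2 ratio of 0.18 (interval 0.12 to 0.25). The other 7 genes held 1085 and 513 reads, a log2 ratio of -0.98 (interval -1.13 to -0.83), or 50.7% of the control level. Here Cfd supplied 607 and 270 of the reads. The single ratios of these 7 genes ranged from -2.39 (Plin1) to 3.27 (Lep, on 10 reads). The interval of the sum does not cover that spread.

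**Figure D3:**
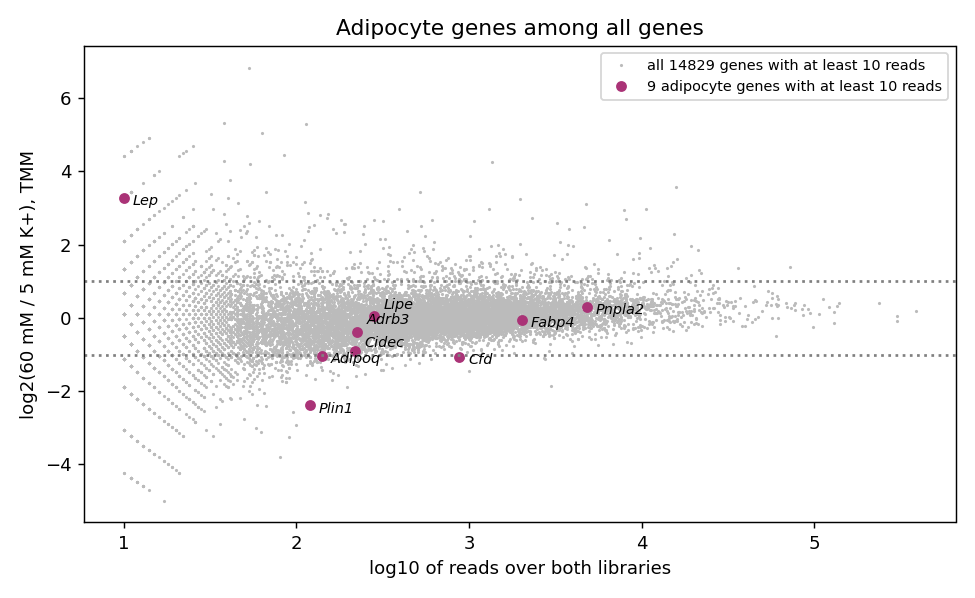
Each grey point is 1 of 14829 genes with at least 10 reads, plotted by log10 of its reads over both libraries and its TMM-scaled log2(60 mM/5 mM K+) ratio. Magenta points are the 9 adipocyte genes with enough reads, and dotted lines mark -1 and 1. Plin1 at -2.39 and Cfd at -1.07 lie below the bulk of genes, and Lep lies at the left edge, at the minimum of 10 reads.

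Compared per gene length, the levels of these genes differed by far more than the difference between the libraries. In 5 mM K+, Pnpla2 was highest at 138 FPKM, followed by Cfd at 64.6 and Fabp4 at 39.4, and the Poisson intervals of these 3 neighbors did not overlap. Cidec at 12.2, Adipoq at 10.1, Adrb3 at 8.78, Lipe at 6.82 and Plin1 at 6.67 FPKM followed, with every neighboring pair of intervals overlapping. Ucp1 at 0.117 and Lep at 0.0519 FPKM were lowest. In 60 mM K+ the order of the leading genes was Pnpla2 at 146, Fabp4 at 32.9 and Cfd at 26.7 FPKM, so that Cfd and Fabp4 changed places. Lipe (6.11 FPKM), Adrb3 (5.85), Cidec (5.64) and Adipoq (4.25) again overlapped from neighbor to neighbor, while Plin1, at 1.10 FPKM, now lay clearly below Adipoq. The deposited FPKM values are scaled by total counts.

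A wider set of 112 genes in 9 lists of adipocyte biology, the 10 genes among them, places these values in their pathways. Of the 102 others, 88 had at least 10 reads, with a median log2 ratio of -0.09. Past the fold, 7 of the 88 were lower, beside 5.86% of all genes, and 3 were higher, beside 5.54%. The counting interval lay below 0 for 24, beside 20.3% of all genes, and above 0 for 19, beside 25.0%. These shares lie near those of all genes. The counts of each list below are to be read against the same percentages, on 18 genes or fewer a list. The list medians that follow are TMM-scaled. With total counts those of the transcription factor list (-0.19) and of the white depot list (-0.04) were below 0.

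Among the triglyceride synthesis and glyceroneogenesis genes, 5 of 8 genes with enough reads had an interval below 0 (20.3% of all genes) and 2 had one above it (25.0% of all genes). Pck1, which makes the glycerol backbone from lactate and amino acids in fasted adipocytes, had 156 and 39 reads and a log2 ratio of -1.90 (interval -2.44 to -1.38). Gpd1 was at -0.99 and Agpat2, mutated in congenital lipodystrophy, at -0.86. Agpat2 overlaps Egfl7 in the annotation. The exceptions were the phosphatidic acid phosphatase gene Lpin1, past the fold with 1237 and 2501 reads and a log2 ratio of 1.12 (0.91 with total counts), and Dgat1, the gene with the highest level in this list at 124 and 196 FPKM, with a log2 ratio of 0.87. The list median was -0.46. Lpin1 is also among the genes that the study reported as up-regulated.

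Lipogenesis and glucose uptake genes had a median of -0.11, with 6 of 14 intervals below 0 and 3 above. Irs1, the docking protein of the insulin receptor, had 189 and 61 reads and was past the fold at -1.53 (interval -1.97 to -1.11). Scd1, the desaturase of fat and liver, had 1234 and 587 reads and a log2 ratio of -0.97 with TMM and -1.18 with total counts. Slc2a4, the insulin-responsive glucose transporter also used by muscle, had the highest level in the list, 148 and 145 FPKM, and a ratio of 0.18 (-0.02 with total counts). Mlxipl, a glucose-sensing factor, was highest in ratio at 0.40, with 13 and 16 reads.

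Among fatty acid uptake and binding genes, 4 of 9 intervals lay below 0 and none above, and no gene was past the fold. The lowest was the fatty acid translocase Cd36 at -0.66 (195 and 115 reads), and the highest Fabp5 at -0.02. Lpl, lipoprotein lipase, had the highest mean level in this list, 45.8 and 30.6 FPKM, and a log2 ratio of -0.37. The lipid droplet list had a median of -0.14, and only Plin1 was past the fold. Plin4, a perilipin also made by muscle, had the highest level, 120 and 98.9 FPKM, and a ratio of -0.07. Cidea, a droplet protein best known from brown fat, had the highest ratio at 0.63, with 65 and 94 reads.

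In the list of lipolysis and its control, all 18 genes had at least 10 reads and the median was -0.04. G0s2, the peptide that inhibits the lipase made by Pnpla2, was highest at 0.75 (284 and 445 reads). The nicotinic acid receptor Hcar2, with 7 and 3 reads, was lowest at -1.12 and past the fold, but its interval of -3.70 to 1.01 held 0. Beside Adipoq, Cfd and Lep, the adipokines had a median of -0.10 over 8 genes, with Retn (resistin, 57 and 30 reads) at -0.82. Nampt, an enzyme of NAD synthesis that many cells make, had the highest level, 78.8 and 86.3 FPKM, and a ratio of 0.34.

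The adipogenic transcription factors had a median of 0.01 over 11 genes. Pparg, the master regulator of fat, had 14 and 13 reads and Cebpa 73 and 72 reads. Cebpb and Cebpd, early factors that many cells induce under stress, were higher, at 0.95 and 0.87, with 1889 and 3411 reads for Cebpb and 2807 and 4792 for Cebpd, and Cebpd had the highest level at 128 and 203 FPKM. Ebf2, a factor of brown preadipocytes, had 34 and 14 reads and a log2 ratio of -1.18 (interval -2.19 to -0.24).

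Of 18 thermogenic genes, 11 had at least 10 reads and 7 had fewer, Ucp1 among them. P2rx5 had the highest level, 23.2 and 19.7 FPKM. Lower and past the fold were Tbx1 at -1.52 (40 and 13 reads), Slc36a2 at -1.31 (24 and 9 reads) and Cpt1b, with 13 and 0 reads. With its 0 set to a floor of 3 counts, Cpt1b was 4.04-fold lower in 60 mM K+. The upper end of its counting interval was a log2 ratio of -1.51. Cpt1b overlaps Chkb and is uncertain for that reason. The list median of -0.03 is not moved by placing Cpt1b at that floor or at that end of its interval, since it stays on the same side of the median. Tnfrsf9, a beige fat marker that is also an activation receptor of leukocytes and endothelium, was the highest at 4.44 (4 and 81 reads, interval 3.03 to 6.35).

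The white depot and preadipocyte list had a median of 0.17 over 10 genes, with 5 intervals above 0 and 1 below. Dlk1, the preadipocyte factor, was past the fold at 2.32 (interval 0.48 to 4.76) on 3 and 14 reads. Ly6a, a stem cell antigen shared with endothelium, had the highest level, 378 and 504 FPKM, and a ratio of 0.62. Dpp4, a protease of progenitors in fat, was lowest at -0.75 (9 and 5 reads). Other gene models also overlap Nampt, Plin4, Cidea, Gpd1, Irs1, Cebpb, Ebf2 and Dpp4, whose reads carry the same uncertainty.

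**Figure D4:**
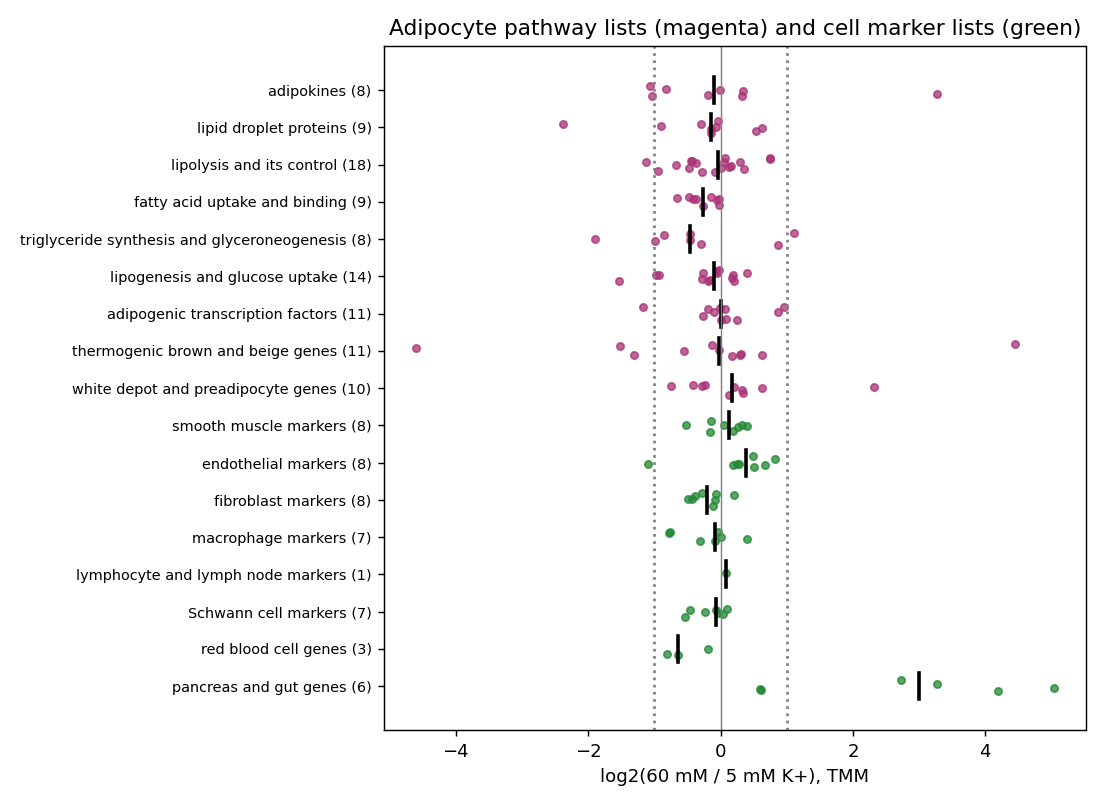
The log2(60 mM/5 mM K+) ratio of each gene with at least 10 reads in 9 adipocyte lists (magenta) and 8 of 9 cell marker lists (green), with the number of genes in brackets. The mesothelial list had none. Black bars are medians, dotted lines mark -1 and 1, and points are spread vertically for legibility. Cpt1b, at -4.60, had 0 reads in 60 mM K+ and is drawn with 0.5. The triglyceride synthesis list has the lowest median of the adipocyte lists, -0.46, and the pancreas and gut list the highest of all, 3.00.

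Other cell types that a strip of mesentery can hold were read from 9 marker lists. Smooth muscle markers had a median of 0.12 (-0.09 with total counts) and held 415564 and 425201 reads in total. Endothelial markers had a higher sum, 37752 and 47943 reads, with 7 of 8 intervals above 0 and a median of 0.38, except for Kdr, the main VEGF receptor, with 168 and 73 reads and a log2 ratio of -1.10. Fibroblast markers had a median of -0.20 and 105289 and 83209 reads, with 7 of 8 intervals below 0 and none past the fold. Macrophage and Schwann cell markers had medians of -0.09 and -0.07.

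Of 3 red blood cell genes with at least 10 reads, none was past the fold and 2 had an interval below 0. Hba-a1 had 236 and 141 reads (log2 ratio -0.64) and Hba-a2 195 and 104 reads (-0.81), although reads of this near-identical pair cannot be divided with certainty. Alas2, the first enzyme of heme synthesis in red cells, had 11 and 9 reads and an interval of -1.64 to 1.22 that held 0. Pancreas genes were higher in 60 mM K+. Pnlip, encoding pancreatic lipase, had 2 and 61 reads, Cela2a 3 and 51, Cpa1 4 and 36 and Ctrb1 21 and 129, all 4 past the fold. Cpb1, with the highest mean level in this list, had 98 and 138 reads. Its log2 ratio of 0.60 (interval 0.21 to 0.98) was inside the fold. Over the 8 pancreas and gut genes the sum was 135 and 425 reads, and the gut genes Fabp1 and Fabp2 had 0 reads in both libraries. Mesothelial markers were at or near 0, with 6 of 8 at 0 in both libraries. Of 8 matched lymphocyte and lymph node markers, 7 had under 10 reads. The remaining gene, Ccl19, had 76 and 75 reads, or 10.1 and 9.21 FPKM. The part of these cell types in the values of the adipocyte genes was not tested.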

How the data were processed

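RNA-seq of mouse mesenteric artery comprised 1 library in 5 mM K+ and 1 in 60 mM K+. The authors aligned the reads with TopHat2 (mm9). Their deposited table gives, for each gene, an unnormalized read count and an FPKM value. The processing notes name TopHat2 2.0.12, HTSeq 0.6.1 and edgeR 3.0.8, and builds mm8 and mm9, without their roles. The annotation is not given in the sources used here, and 22972 of 55573 identifiers are absent from GENCODE vM1, which supplied the mm9 positions. Symbols came from a table of Ensembl gene names. Reads per FPKM differed between the libraries by 1.08, the ratio of total counts, so the deposited FPKM were scaled by totals.

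TMM factors (1.07 and 0.930) were computed with edgeR 4.0.16, and median-of-ratios factors with DESeq2 1.42.0, in R 4.3.3. Ratios, exact intervals and a random-sampling test, with a count of 0 set to 0.5, used Python 3.11.15 and scipy 1.17.1. The authors ran DEGSeq on counts adjusted by edgeR. The test here is not DEGSeq and shares only its idea and the thresholds. The calculations were tested on simulated data. Without replicates edgeR's quasi-likelihood test could not be run. A floor of 3 counts is 0.266 and 0.286 CPM.

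Of the genes in the adipocyte lists, those named are, per list, the highest FPKM, the highest and the lowest ratio, and genes past the fold whose interval did not hold 0. In the marker lists only some of the genes that meet this rule are named. Retn, Gpd1, Agpat2, Scd1, Pparg, Cebpa, Fabp1 and Fabp2 were named after their values were seen. The members and lists were chosen with earlier results of these data known. Of the 18 lists, symbols not found by name were matched through RefSeq synonyms. Ccl21a, Hbb-bs, Hbb-bt and Ahsp were not matched. Alternatives covered scaling, read minimums, FPKM pseudocounts and omitted members.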

Additional observations from a re-analysis of the deposited data

How the results depend on the processing

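The count of genes past the fold and lower in 60 mM K+ was 3. It stayed between 3 and 4 under each alternative except scaling to fibroblast markers, which left 1 gene, and a threshold on the nearest end of the counting interval, which left 1, Plin1 in both cases. The 1 gene past the fold and higher, Lep, rests on 10 reads: the count was 0 with at least 50 reads, with FPKM and a pseudocount of 1, with the threshold on the interval end and with the random-sampling test, and 2 with no minimum beyond 1 read, which admits Ucp1.

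The median log2 ratio of -0.38 kept its sign under each alternative. A median has no counting interval of its own, so that of the middle gene, Adrb3 (-0.78 to 0.02), was used. The median moved beyond it to -0.97 without Fabp4, Pnpla2 and Lipe and to -0.82 with scaling to endothelial markers. The log2 ratio of the summed reads, -0.02, depended on scaling and on the widely used genes. It was -0.23 with total counts, -0.32 with FPKM at either pseudocount, -0.98 without Fabp4, Pnpla2 and Lipe, -0.41 without Pnpla2, -0.16 with scaling to smooth muscle markers, -0.47 to endothelial markers and 0.22 to fibroblast markers. Scaling to marker lists was added after the data were seen. For single genes, 73 alternative values lay within the counting interval of the reported value and 17 did not. The 73 include the values with another number in place of a count of 0. Those could not differ from the reported values, because none of the 10 genes had a count of 0. For list medians, 62 alternative values lay within the interval of the middle gene and 23 did not. Where a list had 2 middle genes, the ends of their intervals were averaged. Adipoq, Cfd, Plin1, Cidec and Adrb3 were below 0 in all 9 alternatives computed for single genes, which are 6 scalings, 2 FPKM pseudocounts and 1 value for a count of 0. The last of these repeats the reported values and is no separate check. Each scaling shifts all genes by the same amount, and the FPKM alternatives follow total-count scaling. A ratio well below 0 therefore stays below 0 under them. No paired analysis was possible because there was a single library for 5 mM K+ and for 60 mM K+. Counting limits Lep and Ucp1 most, and the spread between animals is unknown.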

Other observations

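Ranked by log2 ratio among the 10738 genes with at least 100 reads over both libraries, with that limit set once the values were known, Plin1 was in place 2 from the lowest and Pck1, also of the adipocyte lists, in place 3. Irs1 followed in place 10, Cfd in place 65, Adipoq in place 75, Scd1 in place 101, Cidec in place 157 and Agpat2 in place 195. Adrb3 was in place 1481, Fabp4 in place 4458, Lipe in place 5633 and Pnpla2 in place 8179. The same lists also reached the other end, with G0s2 in place 10147, Dgat1 in place 10293, Cebpd in place 10300, Cebpb in place 10367 and Lpin1 in place 10482. The places describe these 2 libraries and were not tested.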
